A study of Mus musculus with 6 samples.

Results

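Ribosome biogenesis and nucleolar factors were examined in epithelial cells from the jejunum (a segment of small intestine) of mice, as 46 named genes whose products make ribosomal RNA, modify and cleave it, and fold it with ribosomal proteins into the subunits. A gene was taken from the array table where a row carried its symbol alone, and the brightest row on average was kept where several did. In this way 45 of the 46 genes were measured among 19938 named genes in all, and Noc2l had no row of its own. The samples were 3 control animals (R26-M2rtTA, an activator of transcription that works only with doxycycline, placed at a locus that is active in most cell types) and 3 transgenic animals that carried in addition a Musashi transgene under the TRE promoter that this activator drives. All 6 animals had drunk doxycycline for 24 h, so both the drug and the activator were shared by the groups, and no animal was without them. The series text writes this genotype as TRE-Msi1::R26-M2rtTA and the genotype label as TRE-MSI2::R26-M2rtTA. Msi1 was higher by 5.66 log2 units in the transgenic arrays (SE 0.09, limma adjusted p = 1.34e-05), and Msi2 differed by -0.42 (adjusted p = 0.168). Musashi proteins bind messenger RNA and are known from stem and progenitor cells. Ages, sexes and strains of the animals were not given in the sources used here.

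Ribosomes are built in the nucleolus. RNA polymerase I (Pol I) copies the ribosomal DNA into one long precursor, box C/D and box H/ACA small nucleolar ribonucleoproteins (snoRNPs) guide its chemical modification, and many assembly factors cut and fold it into the precursors of the small and the large subunit. In the intestine this work is known to be most active in the dividing cells of the crypts and to decline as cells move onto the villus. The transcription factor Myc, which pairs with Max and binds the sequence CACGTG (the E-box), is a known activator of many of these genes.

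Promoters are shown first for the members that passed the test described further on, Ebna1bp2, Nop10 and Bysl, as the 250 bases before the start of the gene (5′ to 3′ along the gene, RefSeq, GRCm38.p6), with any CACGTG in capitals.
Ebna1bp2, chr4:118620549-118620798, plus strand: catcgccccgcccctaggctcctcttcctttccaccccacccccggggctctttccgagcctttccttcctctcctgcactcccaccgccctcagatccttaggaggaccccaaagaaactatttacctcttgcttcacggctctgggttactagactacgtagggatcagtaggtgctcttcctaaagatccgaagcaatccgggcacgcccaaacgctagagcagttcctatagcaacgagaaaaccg
Nop10, chr2:112261676-112261925, plus strand: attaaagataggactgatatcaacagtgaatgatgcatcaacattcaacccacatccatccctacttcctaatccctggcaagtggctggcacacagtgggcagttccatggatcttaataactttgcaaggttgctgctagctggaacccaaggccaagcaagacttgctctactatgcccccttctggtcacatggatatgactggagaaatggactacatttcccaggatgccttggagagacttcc
Bysl, chr17:47611493-47611742, minus strand: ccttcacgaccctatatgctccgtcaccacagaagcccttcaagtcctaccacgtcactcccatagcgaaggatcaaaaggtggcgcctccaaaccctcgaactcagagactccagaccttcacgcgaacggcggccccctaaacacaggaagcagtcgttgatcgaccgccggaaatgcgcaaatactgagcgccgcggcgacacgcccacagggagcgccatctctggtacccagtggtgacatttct
None of these 3 windows holds CACGTG, which says only that these letters are not there. The RefSeq table held 39 of the 45 measured members. In windows from 250 bases before to 50 after the start, CACGTG, which reads the same on both strands, occurred in 8 of the 39 (20.5%), against 9.5% of the 15614 genes tested that have a window and 8.1% of all 27025 genes in the table. Members with several windows were counted once if any window held it. The difference in share was not tested, and the genes compared were not matched for the base content of their promoters. The 9 matches are shown as 30 bases with the motif in capitals. Of these, 4 begin before the start and 5 after it.
Rrn3, site a, chr16:13780472-13780501, plus strand: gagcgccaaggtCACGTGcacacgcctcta
Rrn3, site b, chr16:13780639-13780668, plus strand: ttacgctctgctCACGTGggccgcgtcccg
Mybbp1a, chr11:72441347-72441376, plus strand: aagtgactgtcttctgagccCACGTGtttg
Utp18, chr11:93885769-93885798, minus strand: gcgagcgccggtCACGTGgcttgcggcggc
Tsr1, chr11:74898092-74898121, plus strand: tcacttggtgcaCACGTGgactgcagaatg
Utp20, chr10:88826765-88826794, minus strand: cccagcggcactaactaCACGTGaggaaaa
Wdr43, chr17:71616220-71616249, plus strand: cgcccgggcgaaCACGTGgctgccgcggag
Nop2, chr6:125131811-125131840, plus strand: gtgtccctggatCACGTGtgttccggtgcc
Pes1, chr11:3963965-3963994, plus strand: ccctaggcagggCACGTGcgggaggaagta
The 8 genes belong to Pol I transcription (Rrn3), nucleolar regulation (Mybbp1a), small subunit assembly (Utp18, Tsr1, Utp20 and Wdr43) and large subunit assembly (Nop2 and Pes1). None of the 3 box C/D and 4 box H/ACA genes in the table had a match, numbers too small to set against the 9.5% of genes tested. A match is a stretch of letters and not a measured binding site.

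The arrays give log2 signals, so a difference of 1 is a doubling, and levels of different genes cannot be set against each other because each row has its own probes. On each control array the median of the members lay within 0.01 of the control mean. In the transgenic arrays most lay higher: 44 of 45 members had a difference above 0 (41.5% of all genes did), with a median of 0.98 and a range from -0.55 to 1.71, against a median of -0.04 over all genes. The groups did not overlap for 42 members, 41 of them higher (16.0% of all genes) and 1, Ubtf, lower (18.2% of all genes). Only 3 members passed an adjusted p of 0.05 in limma, a moderated linear model fitted to all genes: Ebna1bp2, Nop10 and Bysl, all higher, where 6.04% of all genes passed as higher. None passed as lower (5.84% of all genes), and at an unadjusted p under 0.05 the counts were 32 higher and 1 lower, against 12.3% and 12.7% of all genes. The p-values of this fit to all arrays measure the spread between animals. With 3 arrays a group an exact two-sided permutation test of a single gene cannot go below 0.1.

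The size of the difference varied between the transgenic arrays. Transgenic replicate 1 stood apart from all other arrays over all genes, with correlations of 0.922 to 0.951 to them, against 0.995 to 0.996 among controls and 0.996 between transgenic replicates 2 and 3. Its signal was the highest of the 3 transgenic arrays for 45 of 45 members (33.7% of all genes). The member median was 1.96 above the control mean on replicate 1, or 3.90-fold, and 0.58 and 0.55 on replicates 2 and 3. On replicate 1, 43 of 45 members were at least 2-fold above the control mean, which 7.98% of all genes were. Replicates 2 and 3 both lay above all 3 controls for 41 members (22.7% of all genes). With replicate 1 left out, 2 transgenic arrays were compared with 3 controls, and 36 members passed as higher and 1 as lower, against 14.0% and 14.5% of all genes (28.6% in either direction, and 11.9% with all arrays). The median difference was then 0.57, or 1.48-fold, with a range from -0.73 to 1.18. The tests of members named below were therefore run with and without that array. Fits without it leave out the most distant animal, so their p-values do not measure the full spread between animals and can be too small. For Ddx21 the SE was 0.36 with all arrays and 0.082 without replicate 1.

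**Figure D1:**
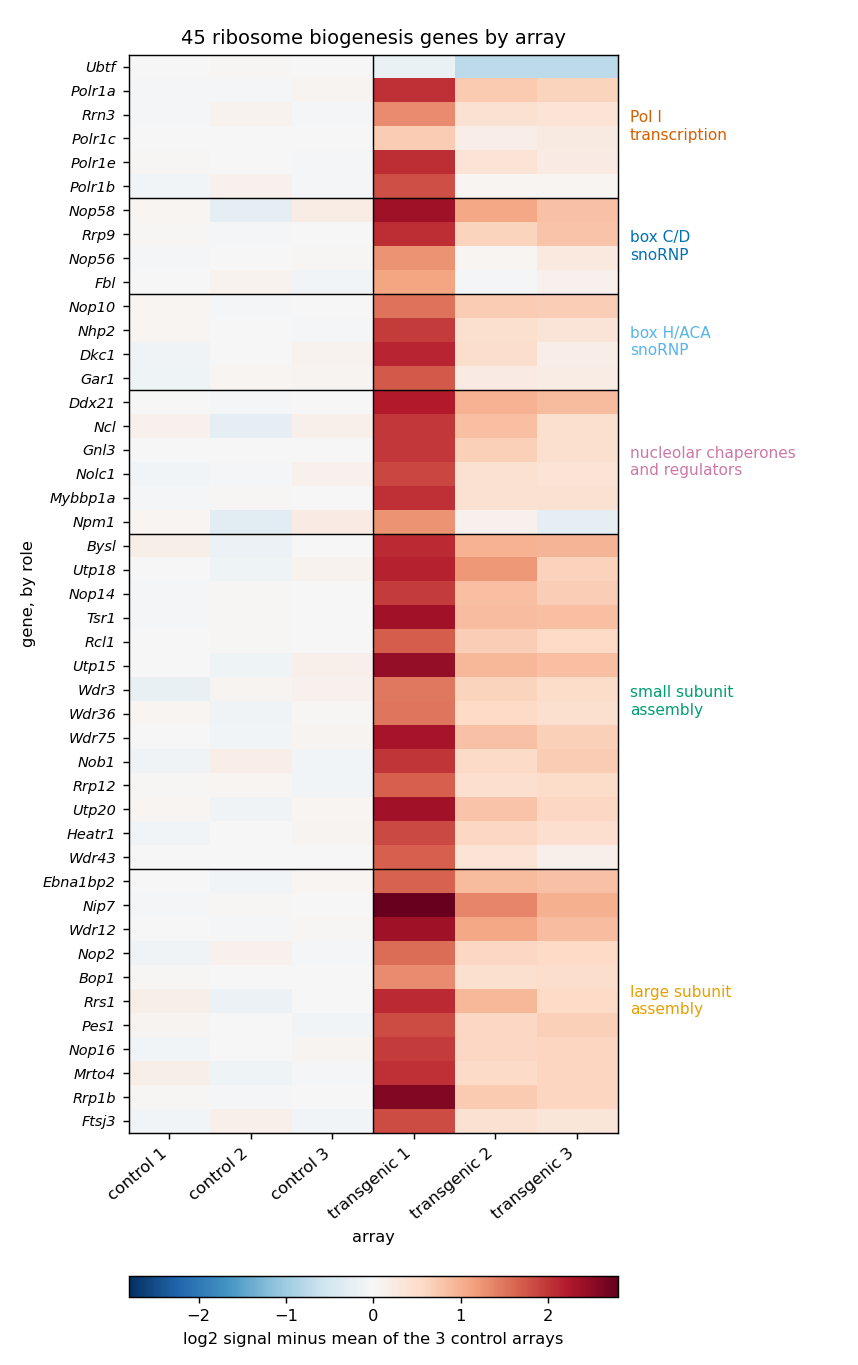
Heat map of 45 ribosome biogenesis genes (one per line, grouped by role) on 6 arrays (columns); colour is the log2 signal minus the mean of the 3 control arrays, red above and blue below. All members but Ubtf are red on transgenic replicate 1, most are paler red on replicates 2 and 3, and Ubtf is blue on all 3.

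**Figure D2:**
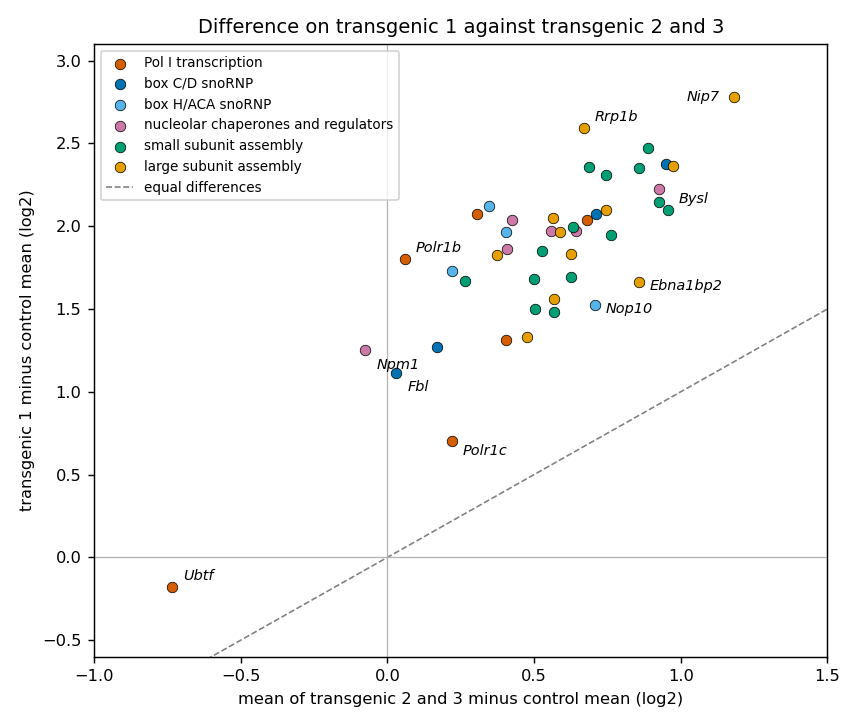
Each point is one of 45 genes, coloured by role, with its difference from the control mean on transgenic replicate 1 (vertical, log2) against the mean of transgenic replicates 2 and 3 (horizontal, log2). The dashed line marks equal differences; all points lie above it, with Nip7 highest (2.78 against 1.18) and Ubtf lowest (-0.18 against -0.73).

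The machinery that transcribes ribosomal DNA was mixed. Of its 6 members none passed with all arrays (11.9% of all genes did). Without transgenic replicate 1 Polr1a, Polr1e and Rrn3 passed as higher (14.0% of all genes did) and Ubtf as lower (14.5% of all genes). Polr1a, the largest subunit of Pol I, had signals of 7.42, 7.39 and 7.52 in the controls and 9.48, 8.18 and 8.07 in transgenic replicates 1, 2 and 3. The difference was 1.13 (SE 0.37, adjusted p = 0.117), and 0.68 without replicate 1 (adjusted p = 0.000638). All transgenic arrays were above all controls, replicate 1 by the most. Rrn3, the factor that brings Pol I to the promoter, read 9.26, 9.40 and 9.25 in controls and 10.62, 9.74 and 9.68 in transgenic arrays, again without overlap, and differed by 0.71 (adjusted p = 0.149), or 0.41 without replicate 1 (adjusted p = 0.00859).

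Ubtf, which binds ribosomal DNA and keeps it open for Pol I, went the other way. It read 9.30, 9.33 and 9.29 in controls and 9.13, 8.57 and 8.58 in transgenic arrays. Replicate 1 was the nearest to the controls, and the groups did not overlap. The difference was -0.55 (SE 0.16, adjusted p = 0.092), and -0.73 without replicate 1 (adjusted p = 0.000272), or 0.602-fold. Polr1b, the second large subunit, was 10.51 on replicate 1 and 8.77 on both other transgenic arrays, within the control range of 8.63 to 8.82; its difference was 0.64 (adjusted p = 0.497), or 0.059 without replicate 1 (adjusted p = 0.74). Polr1c, a subunit shared with RNA polymerase III, differed by 0.38 (adjusted p = 0.175), or 0.22 without replicate 1 (adjusted p = 0.0777).

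Among box C/D snoRNP proteins, which carry the 2′-O-methylation guides, the members differed in how far replicates 2 and 3 followed replicate 1. Nop58, a core protein, read 7.74, 7.43 and 7.89 in controls and 10.06, 8.77 and 8.51 in transgenic arrays, a difference of 1.42 (SE 0.41, adjusted p = 0.0808), or 0.95 without replicate 1 (adjusted p = 0.00147). Rrp9, specific to the U3 particle that starts precursor cleavage, read 7.29, 7.22 and 7.24 against 9.33, 7.88 and 8.04, a difference of 1.16 (adjusted p = 0.111), or 0.71 without replicate 1 (adjusted p = 0.000554). Both had every transgenic array above every control. Nop56, the partner of Nop58 in the core, read 9.52, 9.59 and 9.61 in controls and 10.84, 9.63 and 9.85 in transgenic arrays. Its difference of 0.54 (adjusted p = 0.367) was 0.17 without replicate 1 (adjusted p = 0.266), and replicate 2 lay just above the highest control. The methyltransferase Fbl differed by 0.39 with all arrays (adjusted p = 0.52) and by 0.031 without replicate 1 (adjusted p = 0.886), and its groups overlapped. A second Fbl row, not used in the counts, did not overlap between groups. It differed by 0.61, and by 0.18 on replicates 2 and 3.

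Box H/ACA snoRNPs, which guide pseudouridylation, have 4 core proteins. All 4 had every transgenic array above every control (16.0% of all genes did). Nop10, the smallest of them, rose: it read 9.53, 9.41 and 9.48 in controls and 10.996, 10.195 and 10.169 in transgenic arrays, a difference of 0.98 (SE 0.23, adjusted p = 0.046), or 1.97-fold. Nop10 lost this call when any array but transgenic replicate 1 was left out (adjusted p up to 0.169), and was at 0.71 without replicate 1 (adjusted p = 0.000411). Nhp2 read 7.26, 7.20 and 7.17 in controls and 9.17, 7.66 and 7.56 in transgenic arrays, with a difference of 0.92 (adjusted p = 0.254), or 0.40 without replicate 1 (adjusted p = 0.0073). Dkc1, the pseudouridine synthase, read 7.69, 7.82 and 7.89 against 9.92, 8.30 and 7.99, so that replicate 3 lay only just above the highest control. It differed by 0.94 (adjusted p = 0.317), or 0.35 without replicate 1 (adjusted p = 0.0556). Gar1 differed by 0.72 (adjusted p = 0.364), or 0.22 without replicate 1 (adjusted p = 0.124).

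Of the 6 abundant nucleolar proteins and regulators none passed with all arrays, and 5 passed as higher without transgenic replicate 1 (14.0% of all genes did). Ddx21, an RNA helicase of the nucleolus, read 8.72, 8.68 and 8.73 in controls and 10.93, 9.68 and 9.59 in transgenic arrays, a difference of 1.36 (SE 0.36, adjusted p = 0.0628), or 0.93 without replicate 1 (adjusted p = 0.000103). The groups were far apart compared with the narrow control range. Ncl (nucleolin) read 9.87, 9.51 and 9.89 against 11.73, 10.59 and 10.21, with a difference of 1.09 (adjusted p = 0.143), or 0.64 without replicate 1 (adjusted p = 0.0131). Gnl3 (nucleostemin, a GTPase known from stem and dividing cells) read 7.64, 7.66 and 7.63 against 9.61, 8.31 and 8.10, a difference of 1.03 (adjusted p = 0.164), or 0.56 without replicate 1 (adjusted p = 0.00219). All transgenic values of Ncl and Gnl3 were above the controls. Nolc1 and Mybbp1a differed by 0.89 and 0.96 (adjusted p = 0.24 and 0.249), and by 0.41 and 0.43 without replicate 1, where both passed.

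Npm1 (nucleophosmin) was the exception in this group. Its signals were 9.37, 9.02 and 9.53 in controls and 10.56, 9.42 and 9.04 in transgenic arrays, so that only replicate 1 stood above the controls. The difference was 0.37 (adjusted p = 0.657) with all arrays and -0.075 without replicate 1 (adjusted p = 0.834). Another 3 rows named for both Npm1 and Gm15484 differed by 0.21 to 0.29, and by -0.074 to 0.013 on replicates 2 and 3. Npm1 has near-identical copies in the genome, so its rows may share signal with them.

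**Figure D3:**
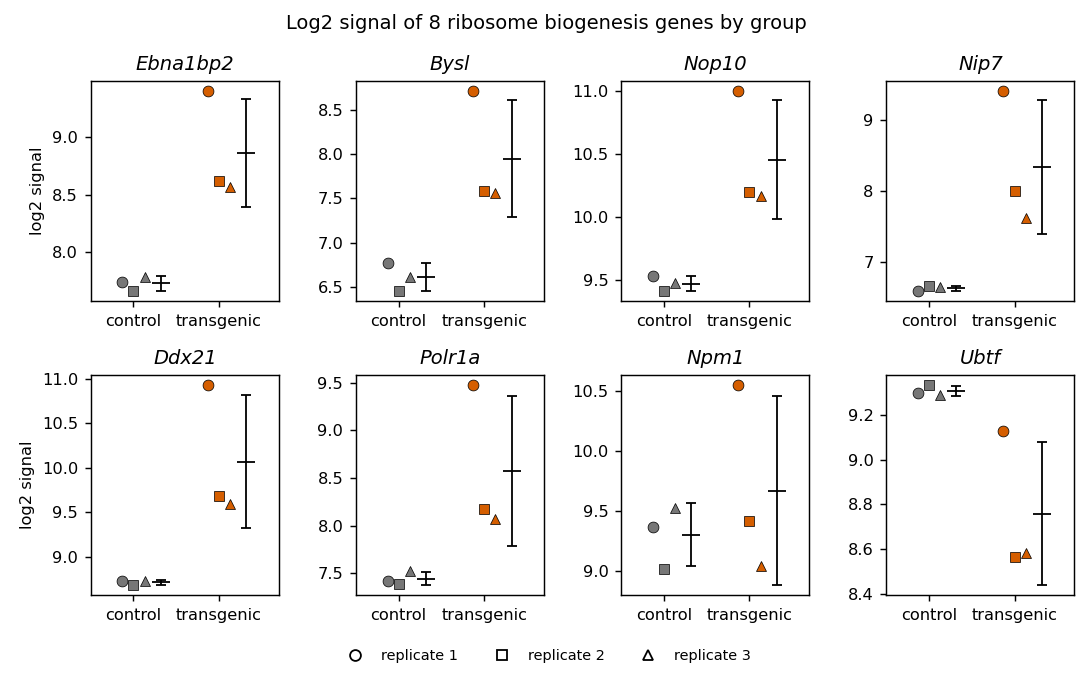
Log2 signal of 8 genes in control (grey) and transgenic (orange) arrays; marker shapes give the replicate, and the bar beside each group is the mean with its SD (n = 3). For Ebna1bp2, Bysl, Nop10, Nip7, Ddx21 and Polr1a all transgenic arrays lie above the controls with replicate 1 highest, for Npm1 the groups overlap, and for Ubtf all transgenic arrays lie below.

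Factors that assemble the small subunit lay higher throughout. All 14 members had every transgenic array above every control (16.0% of all genes did). With all arrays 1 passed, where 6.04% of all genes passed as higher. Without transgenic replicate 1, 13 passed as higher (14.0% of all genes), with Wdr43 the exception (0.26, adjusted p = 0.0768). Bysl, needed late in small subunit maturation, rose: it read 6.77, 6.45 and 6.61 in controls and 8.71, 7.58 and 7.56 in transgenic arrays, a difference of 1.34 (SE 0.32, adjusted p = 0.0496), or 2.53-fold. Its call was lost when any array but transgenic replicate 1 was left out (adjusted p up to 0.184), and its difference was 0.96 without replicate 1 (adjusted p = 0.000328).

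Utp18 and Nop14 belong to the small subunit processome, the large particle that forms on the precursor. Utp18 read 6.80, 6.67 and 6.89 in controls and 8.934, 7.995 and 7.431 in transgenic arrays, a difference of 1.33 (adjusted p = 0.0706), or 0.93 without replicate 1 (adjusted p = 0.00274). Nop14 read 7.05, 7.10 and 7.06 against 9.02, 7.91 and 7.76, a difference of 1.16 (adjusted p = 0.0786), or 0.76 without replicate 1 (adjusted p = 0.000341). Neither gene overlapped between groups, and the 3 transgenic values of Utp18 were spread more widely. Among the other processome members Utp15, Wdr75, Heatr1, Wdr3, Wdr36, Utp20, Rrp12 and Rcl1 lay between 0.50 and 0.89 without replicate 1, and each passed there. Tsr1 and Nob1, which act in the last cytoplasmic steps, lay at 0.86 and 0.63 without replicate 1 and passed there as well.

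Factors of the large subunit also lay higher. All 11 measured members had every transgenic array above every control (16.0% of all genes did). With all arrays 1 passed (6.04% of all genes passed as higher), and 11 passed as higher without transgenic replicate 1 (14.0% of all genes). Ebna1bp2, an early large subunit factor, rose and had the smallest p of all members: it read 7.75, 7.66 and 7.79 in controls and 9.39, 8.62 and 8.56 in transgenic arrays, a difference of 1.12 (SE 0.23, 95% interval 0.57 to 1.68, adjusted p = 0.0293), or 2.18-fold. Its call was lost without any 1 control or without transgenic replicate 2 (adjusted p up to 0.125), and it was at 0.86 without replicate 1 (adjusted p = 0.000173).

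Nip7 had the largest difference of all members. It read 6.59, 6.66 and 6.64 in controls and 9.410, 8.001 and 7.622 in transgenic arrays, a difference of 1.71 (SE 0.44, adjusted p = 0.0611), or 1.18 without replicate 1 (adjusted p = 0.000181). The controls were within 0.1 of each other and far below all transgenic values. Wdr12, which forms the PeBoW complex with Pes1 and Bop1, read 7.36, 7.30 and 7.38 against 9.71, 8.43 and 8.21, a difference of 1.44 (adjusted p = 0.0661), or 0.98 without replicate 1 (adjusted p = 0.000166). Its second row, not used in the counts, differed by 1.36 on replicates 2 and 3. Pes1 and Bop1 lay at 0.62 and 0.48 without replicate 1 (adjusted p = 0.000983 and 0.0025), lower than Wdr12. Rrp1b reached 2.59 on replicate 1 and 0.67 without it, and Ftsj3 had the smallest difference of the group without replicate 1 (0.37, adjusted p = 0.0205).

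By role, the share of members that passed as higher without transgenic replicate 1 was 24 of 25 for assembly factors of both subunits and 12 of 20 for the remaining members. Over all genes that share was 14.0%. The 8 members that passed in neither direction there were Polr1b, Polr1c, Nop56, Fbl, Dkc1, Gar1, Npm1 and Wdr43, of which 6 are Pol I subunits or snoRNP core proteins. Whether the roles differ was not tested. Median differences without that array were 0.66 for small subunit assembly, 0.62 for large subunit assembly, 0.49 for nucleolar proteins and regulators, 0.44 for box C/D, 0.37 for box H/ACA and 0.26 for Pol I transcription. On replicate 1 alone the same medians were 1.97, 1.96, 1.97, 1.67, 1.85 and 1.56, with Pol I transcription lowest in both.

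Other genes of ribosome production, named from general knowledge, lay in the same direction. Of 124 measured, 19 rose and 0 fell in limma, against 6.04% and 5.84% of all genes. At an unadjusted p under 0.05, 70 were higher and 1 lower (12.3% and 12.7% of all genes), and the median was 0.69. Without transgenic replicate 1, 74 passed as higher and 5 as lower, against 14.0% and 14.5% of all genes. Of 42 further small subunit factors 7 rose, among them Utp23 (1.06, SE 0.15, adjusted p = 0.0103), Abt1 (0.95, adjusted p = 0.0265), Ddx49 (0.66, adjusted p = 0.0309) and Krr1 (1.37, adjusted p = 0.0355). Of 51 further large subunit factors 9 rose, with Nop53 at 0.49 (SE 0.07, adjusted p = 0.0115), Pak1ip1 at 1.00, Noc3l at 1.51 and Brix1 at 1.32. These 8 genes lost the call in at least 1 fit with an array left out (adjusted p up to 0.147), and passed without replicate 1 at 0.46 to 1.12.

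Of 10 further Pol I factors 2 rose: Taf1a, part of the promoter selectivity factor, by 1.59 (SE 0.30, adjusted p = 0.0221), and Polr1d by 0.85 (adjusted p = 0.0367). Their calls were lost in part of the fits with an array left out (adjusted p up to 0.103 and 0.149), and they differed by 1.26 and 0.65 without replicate 1, where both passed. Of 12 genes of the RNA exosome, which trims precursors, 1 rose, Exosc3 by 1.44 (SE 0.18, adjusted p = 0.00692). Exosc3 kept the call with each array left out (adjusted p up to 0.0461), at 1.25 without replicate 1. In that fit 4 exosome genes passed as higher and 2 as lower, Exosc7 (-0.54) and Exosc9 (-0.42), against 14.0% and 14.5% of all genes. Of 9 snoRNP assembly factors 0 passed in limma (5 at an unadjusted p under 0.05), and Ruvbl1 and Naf1 differed by 1.13 and 1.63. Of 13 genes of RNA polymerase III, which makes 5S ribosomal RNA and transfer RNA, 2 rose: Crcp by 1.02 (adjusted p = 0.00383) and Brf2 by 0.40 (adjusted p = 0.0451, up to 0.185 with an array left out). Without replicate 1 Crcp and Brf2 were at 0.93 and 0.35 and both passed. The Pol III median was 0.33, or 0.14 without replicate 1. Over all genes 6.04% passed as higher with all arrays (12.3% at an unadjusted p under 0.05), and the exosome count of 1 of 12 is close to that 6.04%.

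Proteins of the finished ribosome had smaller differences. Of 53 cytosolic ribosomal protein genes 0 passed in limma (5 were higher at an unadjusted p under 0.05, which 12.3% of all genes were). The median difference was 0.21, and it was 0.034 without transgenic replicate 1, where 2 passed as higher (14.0% of all genes did). On replicate 1 their median was 0.63. Many ribosomal protein genes have processed copies in the genome, which may add to their rows. The difference between this list and the biogenesis list was not tested.

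Of 12 Myc network genes, 1 passed as higher and 1 as lower with all arrays (6.04% and 5.84% of all genes). Without transgenic replicate 1, 2 passed as higher and 4 as lower (14.0% and 14.5% of all genes). Myc read 8.56, 8.69 and 8.94 in controls and 11.24, 9.29 and 9.13 in transgenic arrays. All transgenic values lay above the controls, replicate 1 by 2.51. The difference was 1.16 (SE 0.56, adjusted p = 0.276), or 0.48 without replicate 1 (adjusted p = 0.0186). Mxi1 and Mxd4 pair with Max in place of Myc and repress. They differed by -1.28 (adjusted p = 0.0568) and -0.40 (adjusted p = 0.0505). Without replicate 1 they were at -0.90 and -0.33, where both passed as lower (adjusted p = 0.000384 and 0.0212). Mxd1, Mxd3 and Mnt, also in this list, were at 0.050, -0.081 and -0.16 in that fit. None of them passed there (adjusted p = 0.749, 0.659 and 0.341). Max lay at -1.08 on replicate 1 alone and at 0.11 without that array, and passed in neither fit. Mga, another Max partner, rose by 0.57 (adjusted p = 0.0337, up to 0.138 with an array left out), and Mycn fell by 0.40 on the log2 scale (adjusted p = 0.0406, up to 0.143). Without replicate 1 Mga was at 0.49 and Mycn at -0.41, and both passed.

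The labelled cell type was checked with 11 epithelial markers, among them Epcam and Krt8. Epcam, which defines epithelial cells, read 11.94 to 12.15 in controls and 11.80 to 12.08 in transgenic arrays. The mean log2 signal of the list was 11.21 to 11.24 in controls and 10.94 to 11.15 in transgenic arrays, and 1 marker (Cdh1) rose and 1 (Cldn3) fell. Without transgenic replicate 1, 1 passed as higher (Cdh1) and 4 as lower (Vil1, Cdx1, Cdx2 and Cldn3). Over all genes 6.04% passed as higher and 5.84% as lower with all arrays, and 14.0% and 14.5% without replicate 1. On replicate 1 Vil1 was at -1.33 and Krt18 at 1.30 from the control mean. Stroma and endothelium lists had means of 5.91 to 6.25 and 5.42 to 5.59 over all arrays. Markers of T cells and intraepithelial lymphocytes had means of 8.04 to 8.27 in controls. These levels cannot be set against the epithelial signal because the probes differ. Markers of cell states also differed between the transgenic arrays. With all arrays 1 of 17 proliferation genes fell, Tk1, by 1.04 on the log2 scale (adjusted p = 0.00362), and it was at -1.10 without replicate 1. Of these 17 genes 16 lay above the control mean on replicate 1, with a list median of 0.72. On the mean of replicates 2 and 3, 1 of 17 lay above it, and the list medians there were -0.67 and -0.80. Without replicate 1, 13 of them passed as lower (14.5% of all genes did) and 0 as higher, while members of the biogenesis list passed as higher. The mean signal of these 17 genes was 8.80 to 8.88 in controls and 9.72, 8.26 and 8.17 in transgenic replicates 1, 2 and 3.

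Enterocyte markers, 14 genes of the absorptive cells of the villus, all lay below the control mean on replicate 1, with a list median of -2.49. Their medians were -0.10 and -0.13 on replicates 2 and 3. None passed with all arrays (3 were lower at an unadjusted p under 0.05, which 12.7% of all genes were). Without replicate 1, 5 passed as lower and 1 as higher, against 14.5% and 14.0% of all genes. Those lower included the glucose transporter Slc2a2 (-1.43) and the sugar-cleaving enzymes Treh (-1.36) and Sis (-1.17, adjusted p = 6.2e-05). The mean enterocyte marker signal was 12.20 to 12.27 in controls and 9.41, 11.92 and 11.88 in transgenic arrays.

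Of 9 crypt base stem cell markers 2 fell, Olfm4 (-3.37) and Ascl2 (-1.03), where 5.84% of all genes passed as lower. Without replicate 1, 6 passed as lower (14.5% of all genes did), with Olfm4 at -3.52 and Ascl2 at -1.10. The call of Ascl2 was lost in part of the fits with an array left out (adjusted p up to 0.0733). The list medians were 0.70, -0.56 and -0.75 on transgenic replicates 1, 2 and 3. Of 5 Paneth cell markers, genes of the secretory cells beside the stem cells, 0 passed in limma with all arrays (0 at an unadjusted p under 0.05). All 5 passed as lower without replicate 1 (14.5% of all genes did). Their medians were 0.67, -1.27 and -1.34, with mean signals of 11.30 to 11.33 in controls and 12.10, 10.05 and 9.98 in transgenic arrays. Of 6 goblet cell markers 1 fell (Muc2), where 5.84% of all genes passed as lower. Without replicate 1, 3 goblet markers passed as lower (14.5% of all genes did), among them Spink4 (-1.90). The goblet medians were -0.54, -0.24 and -0.23.

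Of 9 markers of T cells and intraepithelial lymphocytes 0 passed in limma with all arrays (2 were lower at an unadjusted p under 0.05). Without replicate 1, 6 passed as lower (14.5% of all genes did). The list medians were -2.42, -0.60 and -0.61, with mean signals of 8.04 to 8.27 in controls and 5.55, 7.64 and 7.64 in transgenic arrays. Of 8 macrophage and dendritic cell markers 1 rose (Cd14), where 6.04% of all genes passed as higher. Without replicate 1, 2 passed as higher and 3 as lower, against 14.0% and 14.5% of all genes. RMA signals have no true 0, so no marker could be called absent, and in bulk samples fewer cells of a type and less RNA per cell cannot be told apart. The part of cell makeup in the members' differences was not tested.

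**Figure D4:**
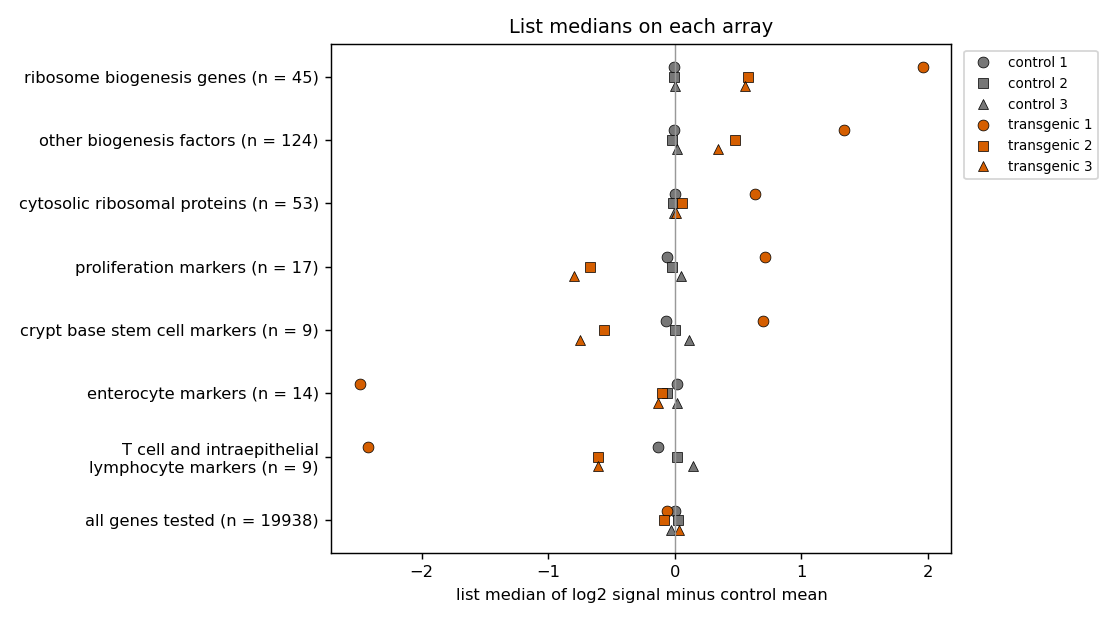
Median difference from the control mean (log2, horizontal) of 8 gene lists on each of 6 arrays (grey controls, orange transgenic; marker shape gives the replicate). Ribosome biogenesis genes lie right of 0 on all 3 transgenic arrays (1.96, 0.58 and 0.55), whereas proliferation markers lie right of 0 on replicate 1 (0.72) and left of it on replicates 2 and 3 (-0.67 and -0.80).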

How the data were processed

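RNA of jejunal epithelial cells, 250 ng per sample, was measured on 6 Affymetrix gene arrays, 3 per group. The log2 values deposited by the authors were made with RMA (background correction, quantile normalization and probe summary) and Partek 6.5, per the submitters' processing notes. Their settings were not stated. Quantile normalization evens out the arrays, which hides any overall gain or loss of RNA. Of 35399 rows, 21789 had 1 gene symbol in the platform annotation, 1621 several and 11989 none; the brightest row per symbol gave 19938 genes. Names of 6 listed genes were matched through RefSeq synonyms. Transgenic minus control was fitted by lmFit and eBayes of limma 3.58.1, run in R 4.3.3, with Benjamini-Hochberg adjustment over all genes, threshold 0.05; an interval is a 95% interval of that fit. The test was tested on simulated data with equal spread in both groups and no array standing apart. These data differ from that setting, so the simulation does not show how the test behaves on them. Signals per array are given for members that passed and the 3 of each role with the smallest p, and up to 4 genes per pathway list are named; other genes were chosen after their values were seen. The members and lists were chosen with earlier results of these data known. Alternatives tried were another quantile normalization, array medians set equal, no dim genes, blocks on replicate numbers, trend and robust eBayes, array weights, row means, another threshold, all rows, and arrays left out. Array number limits the precision.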

Additional observations from a re-analysis of the deposited data

How the results depend on the processing

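With each array left out in turn, members that passed as higher numbered 0 to 36 and as lower 0 to 1, the count of other biogenesis genes higher was 1 to 74 and of other biogenesis genes lower 0 to 5, and all genes called 683 to 5700; the high ends came without transgenic replicate 1, and without any control or without transgenic replicate 2 no member passed. The member median stayed between 0.57 and 1.24. Without transgenic replicate 1 and control replicate 1 together, 34 members were higher and 1 lower, 62 and 3 other biogenesis genes, and 4573 genes in all. With array weights 35 members were higher and 1 lower, 73 and 3 other genes, and 5770 in all. Equal array medians left 1 member higher, testing all rows 1 (and 7 other genes), removing the dimmest 40% of genes gave 6, and an adjusted p under 0.1 gave 13 higher, 1 lower and 35 other genes. A replicate block on the title numbers gave 0 members, 3 other genes and 733 genes in all. One on the description numbers gave 30 higher and 1 lower, 53 and 3 other genes, and 4019 in all. Transgenic replicate 1 and control replicate 1 each carry a description number that no other array has. That fit therefore draws the difference from the remaining arrays only, as when both are left out. Deviations of same-numbered arrays from their group means correlated at -0.17 to -0.07. These values cannot show whether the numbers pair the samples, because transgenic replicate 1 dominates the transgenic deviations. The main fit used no pairing. The gene Npm1 ran from -0.075 to 0.68 with an array left out and changed sign, to -0.075 without transgenic replicate 1, -0.044 without that array and control replicate 1, and -0.044 with the block on description numbers. All other members kept their direction in each setting. Quantile normalization, trend and robust eBayes and row means gave 2, 3 and 4 members. The cause of these changes was not tested.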
